A study of Mus musculus with 24 samples.

Results

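Exosomes from the serum of untreated mice were compared with untreated mouse liver through the small RNA counts of both materials, in a study of acetaminophen injury and granulocyte colony-stimulating factor (G-CSF). Hairpins, the stem-loop precursors from which mature miRNAs are cut, entered the comparison when they had 50 or more counts in either of the 2 columns. This held for 253 of the 1186 hairpins in the table, and 103 of them met the minimum in both columns, 148 in liver only and 2 in serum exosomes only. Both groups are labelled untreated controls. None of the sources used here gives strain, age or the number of mice. Each deposited column combines 2 sequenced samples, 1 from an Ion Torrent PGM and 1 from an Ion Torrent Proton instrument, so that every condition has 1 column and no replicates. A comparison of 2 columns therefore compares those libraries and not the conditions, and all intervals below cover counting error only.

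Control liver had 1307523 hairpin counts and control serum exosomes had 181243. In the separate table of mature miRNAs the totals were 49330 and 6515. Further columns served as readouts beside the comparison. They were liver of mice given 500 mg/kg acetaminophen (111316 hairpin counts), liver of mice given acetaminophen with 100 µg/kg G-CSF (1095868), and untreated cultured primary hepatocytes (838624). In the hepatocyte column, culture and cell type cannot be told apart. Values are shares of a column's total count. In whole liver and in pooled exosomes, fewer cells of a type and less RNA per cell cannot be told apart.

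Exosomes are small vesicles that cells release into blood and that carry a sample of the RNA of their source. Red cells hold large amounts of miR-451a, miR-144 and miR-486, which are made during red cell differentiation, while hepatocytes are dominated by miR-122 and also make miR-192, miR-194 and miR-215. A miRNA binds its target mRNAs mainly through its seed, the bases near the 5′ end, so that miRNAs with 1 seed form a family even where the genes lie on different chromosomes.

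The mature sequences on which the comparison turns are given below, from RefSeq (GRCm38.p6), 5′ to 3′, with the seed (bases 2 to 8) in capitals. The first group shares the miR-30 seed and split between the materials. miR-30b and miR-30d are named without a sequence.
miR-30c-5p: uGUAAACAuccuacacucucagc
miR-30a-5p: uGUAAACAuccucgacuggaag
miR-30e-5p: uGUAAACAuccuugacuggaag
The next are blood cell miRNAs whose hairpins took a larger share of serum exosomes.
miR-451a: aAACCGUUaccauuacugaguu
miR-144-3p: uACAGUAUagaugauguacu
miR-155-5p: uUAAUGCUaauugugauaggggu
miR-142a-3p: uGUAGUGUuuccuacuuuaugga
The next are miRNAs of liver cells whose hairpins took a larger share of liver. miR-192-5p and miR-215-5p share a seed.
miR-192-5p: cUGACCUAugaauugacagcc
miR-215-5p: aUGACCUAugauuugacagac
miR-194-5p: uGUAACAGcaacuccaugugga
miR-31-5p: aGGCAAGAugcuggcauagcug
miR-126a-3p: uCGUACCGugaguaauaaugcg
The last come from shared clusters whose members went separate ways, first the miR-17 seed and then the miR-19 seed.
miR-17-5p: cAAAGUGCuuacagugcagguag
miR-20a-5p: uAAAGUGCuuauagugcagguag
miR-106a-5p: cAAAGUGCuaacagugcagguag
miR-19a-3p: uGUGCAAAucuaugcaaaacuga
miR-19b-3p: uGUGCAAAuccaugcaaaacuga

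Serum exosomes were dominated by a few hairpins and liver was not. In serum exosomes 2 hairpins, mir-30c-1 and mir-30c-2 at 25.8% each, were enough to hold 50% of all counts, against 20 hairpins in liver. The 10 most abundant hairpins took 79.9% of serum exosome counts and 32.6% of liver counts. In order, those of serum exosomes were mir-30c-2, mir-30c-1, mir-30b, mir-486, mir-3107, mir-380, mir-451a, mir-451b, mir-16-2 and mir-16-1. Those of liver were mir-122, mir-191, mir-31, let-7a-1, let-7a-2, mir-126a, mir-103-2, mir-103-1, mir-107 and let-7c-1. No hairpin was in both lists of 10.

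A hairpin was called when its shares differed at least 2-fold and the exact 95% interval of their ratio left out equality. By this rule 33 of the 253 hairpins (13%) were higher in serum exosomes and 186 (73.5%) were lower. Among the 103 that met the minimum in both columns, 25 (24.3%) were higher and 60 (58.3%) lower. The minimum is set in counts, and liver is the deeper column. Entry through liver alone therefore depends on depth as well as on share. Of the 148 hairpins that entered through liver alone, 126 were lower, 16 were not called and 6 were higher. The 2 that entered through serum exosomes alone were higher. Since the calls depend on how hairpins entered, these counts describe the members and support nothing about them. Just inside the minimum lay 5 hairpins whose larger count was 51 to 54, and just outside it lay 4 at 45.3 to 49. The median hairpin had a log2 ratio of −2.45, a share 5.47-fold higher in liver. Since shares add up to 100%, the 60.8% of serum exosome counts held by mir-30b, mir-30c-1 and mir-30c-2 lowers every other share there. Scaling by trimmed mean of M values (TMM) instead of totals raised all log2 ratios by 2.39, and by DESeq2 size factors by 2.45, after which 68 hairpins were higher and 58 lower (TMM) or 71 and 57 (DESeq2). Statements of higher and lower below refer to shares. By those scalings the median hairpin lies near 0, so a log2 ratio between −2.45 and 0 by share mostly turns positive.

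**Figure D1:**
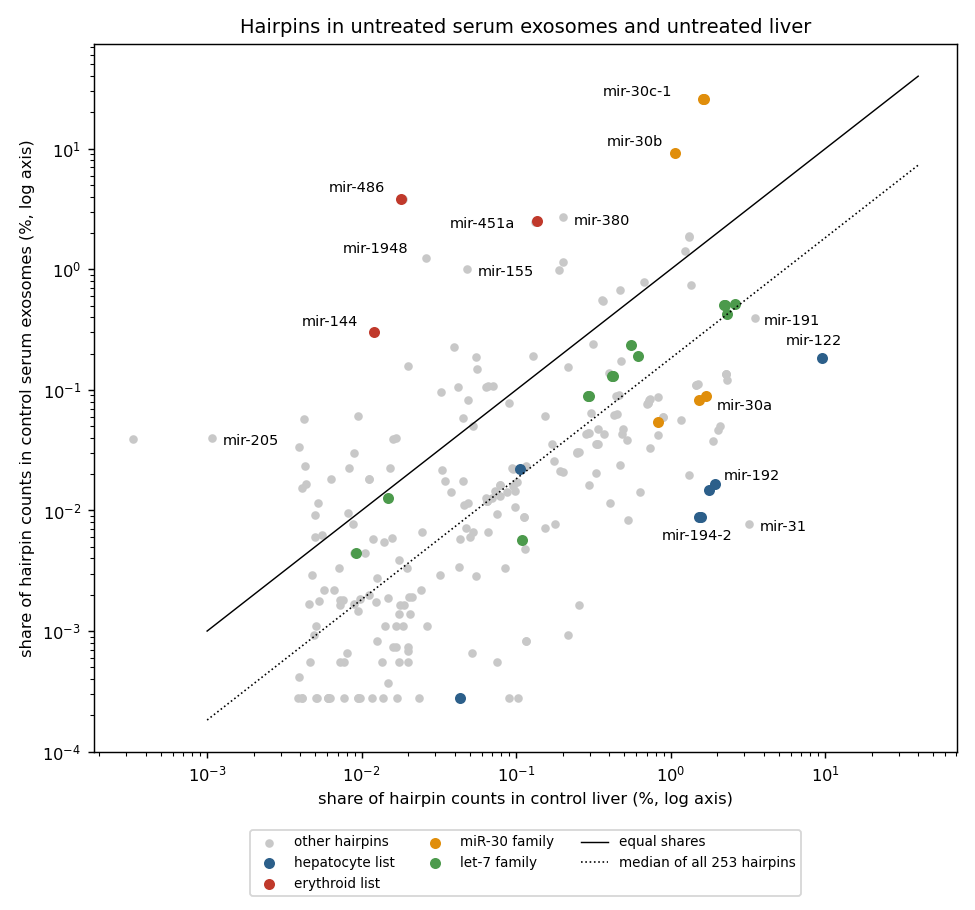
Share of hairpin counts in control liver (x axis, %, log axis) against control serum exosomes (y axis, %, log axis) for 253 hairpins, each point 1 hairpin; hairpins without a serum count are drawn in the lowest row, at the height of a fraction of 1 count. mir-30c-1, mir-30b and the erythroid hairpins lie above the line of equal shares, and mir-122 at 9.56% of liver and 0.186% of serum exosomes lies far below it.

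The miR-30 family divided into members that were higher and members that were lower, although all share the seed GUAAACA. mir-30c-1 had 46704 counts (25.8%) in serum exosomes and 21032 (1.61%) in liver, a 16.02-fold higher share (15.8 to 16.3). mir-30c-2, which gives the same mature miR-30c-5p, had 46704 and 21394 counts. The counts of the pair are nearly equal and reads that match several entries were divided, so the pair is read as 1 measurement. mir-30b had 16749 counts (9.24%) and 14015 (1.07%), an 8.62-fold higher share (8.43 to 8.82). The other members were lower. mir-30a had 162 counts (0.0892%) in serum exosomes against 22008 (1.68%) in liver, an 18.8-fold higher share in liver (16.1 to 22.1). mir-30d had 151 against 20068 counts, 18.4-fold (15.7 to 21.8), and mir-30e 98.7 against 10859, 15.2-fold (12.5 to 18.7). In liver the 6 hairpins were of similar abundance, from 0.831% to 1.68%, and in serum exosomes they spanned 0.0545% to 25.8%.

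Summed over mir-30b, mir-30c-1 and mir-30c-2, the share was 60.8% in serum exosomes and 4.32% in liver, and summed over mir-30a, mir-30d and mir-30e it was 0.227% and 4.05%. The ratio of the first sum to the second was 268 in serum exosomes and 1.07 in control liver. It was 2.08 in acetaminophen liver, 0.743 in liver with G-CSF added and 1.53 in hepatocytes, so serum exosomes stood apart from all 4 other columns. The mature table, made from the same samples, gave 252 in serum exosomes and 0.900 in liver. There miR-30c-5p had 3680 counts in serum exosomes (56.5%) and 1269 in liver (2.57%). miR-30a-5p had 6.33 and 774 counts, miR-30d-5p 6.33 and 748, and miR-30e-5p 5.33 and 708. These counts are close to each other and hold fractions, since reads that match several entries were divided. The counts of the hairpins mir-30a, mir-30d and mir-30e hold fractions too, so these members are not read as independent measurements. The direction of each miR-30 hairpin was the same under TMM and DESeq2 scaling.

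Members on either side of the split were close in sequence, and some were close in the genome. miR-30c-5p and miR-30a-5p are identical over their first 12 bases and at 17 of 22 positions, and miR-30a-5p and miR-30e-5p at 21 of 22, counted from the 5′ end. mir-30c-1 (chr4:120769534-120769622, minus strand) and mir-30e (chr4:120772606-120772697, minus strand) lie 2984 bases apart in an intron of Nfyc, which encodes a subunit of a CCAAT-binding transcription factor. Positions are those of GRCm38 with GENCODE M21 and were matched by name. The log2 ratio was 4.0 for mir-30c-1 and −3.93 for its neighbour mir-30e. The count of mir-30c-1 was 473 times that of mir-30e in serum exosomes and 1.94 times in liver. mir-30c-2 (chr1:23291701-23291784) and mir-30a (chr1:23272269-23272339) lie on the plus strand of chromosome 1, and the count of mir-30c-2 was 289 times that of mir-30a in serum exosomes and 0.972 times in liver.

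Hairpins of red cells were higher in serum exosomes. All 3 measured members of the erythroid list were called higher, beside the 13% of all hairpins called so, and together they took 6.68% (95% Wilson interval 6.57 to 6.80) of serum exosome counts and 0.166% (0.159 to 0.173) of liver counts. mir-486, an erythroid and muscle miRNA from an intron of an ankyrin gene, had 6957 counts in serum exosomes and 234 in liver. Its share was 3.84% against 0.0179%, 214-fold higher (188 to 245). mir-3107 had 6950 and 243 counts, nearly equal to those of mir-486 in both columns, so the pair is read as 1 measurement. mir-3107 is not in the erythroid list, and the pair together took 7.67% of serum exosomes and 0.0365% of liver. mir-144 had 551 and 158 counts, a 25.2-fold higher share (21.0 to 30.2).

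mir-451a, which is cut by AGO2 rather than Dicer and is among the most abundant red cell miRNAs, had 4603 counts (2.54%) in serum exosomes and 1773 (0.136%) in liver. Its share was 18.7-fold higher (17.7 to 19.8). mir-451a lies at chr11:78073170-78073241 on the plus strand, just beyond mir-144 at chr11:78073005-78073070. mir-451b is annotated at the same place on the minus strand, and its 4516 and 1745 counts followed those of mir-451a. The hairpins share 57 runs of 16 bases on opposite strands, and mature miR-451b had no counts, so mir-451b cannot be told apart from mir-451a here. mir-451b is not in the erythroid list either, and together with mir-451a it took 5.03% of serum exosomes and 0.269% of liver. The share of the list is therefore lower than that of all these entries.

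The erythroid hairpins did not move by 1 factor. The count of mir-486 was 1.51 times that of mir-451a in serum exosomes and 0.132 times in liver. mir-144 stood at 0.120 times mir-451a in serum exosomes and 0.0890 times in liver. In hepatocytes the 3 erythroid hairpins together had 9 counts, 0.00107% of the column. For the list as a whole the treated livers were intermediate or close to serum exosomes: it took 0.994% with acetaminophen and G-CSF and 5.26% with acetaminophen. This did not hold for mir-486, which with mir-3107 took 0.346% of acetaminophen liver and 0.0555% with G-CSF added, against 7.67% of serum exosomes. The count of mir-486 was 0.0358 times that of mir-451a in acetaminophen liver and 0.0304 times with G-CSF added, both below control liver. mir-451a alone reached 4.82% in acetaminophen liver, above the 2.54% of serum exosomes. The ratio of mir-451a to mir-23a, a pair used to judge red cell lysis in serum, was 29.99 in serum exosomes, 0.184 in control liver, 12.3 in acetaminophen liver, 1.32 with G-CSF added and 0.00255 in hepatocytes. The part of red cell RNA in these results was not tested.

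A second list holds hairpins that are abundant in red cells and in most other tissues, among them the miR-15 and miR-16 hairpins and those of the cluster of mir-106b, mir-93 and mir-25. It took 6.07% of serum exosomes and 4.06% of liver. Of its 9 measured members 2 were higher and none lower, beside 13% and 73.5% of all hairpins, and its median log2 ratio was 0.61 against −2.45 over all. mir-25 had 341 and 718 counts, a 3.43-fold higher share (3.0 to 3.90), and mir-106b was 2.69-fold higher (2.33 to 3.09). mir-16-1 held 1.87% and 1.31%, a 1.43-fold difference (1.38 to 1.48) that missed the 2-fold minimum. mir-195a, whose mature miRNA has the seed of miR-16, held 1.41% and 1.24%. Under TMM or DESeq2 scaling all 9 members were called higher. mir-16-1 and mir-16-2 had near-equal counts, as had mir-15a and mir-15b, so this list too holds fewer measurements than hairpins.

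**Figure D2:**
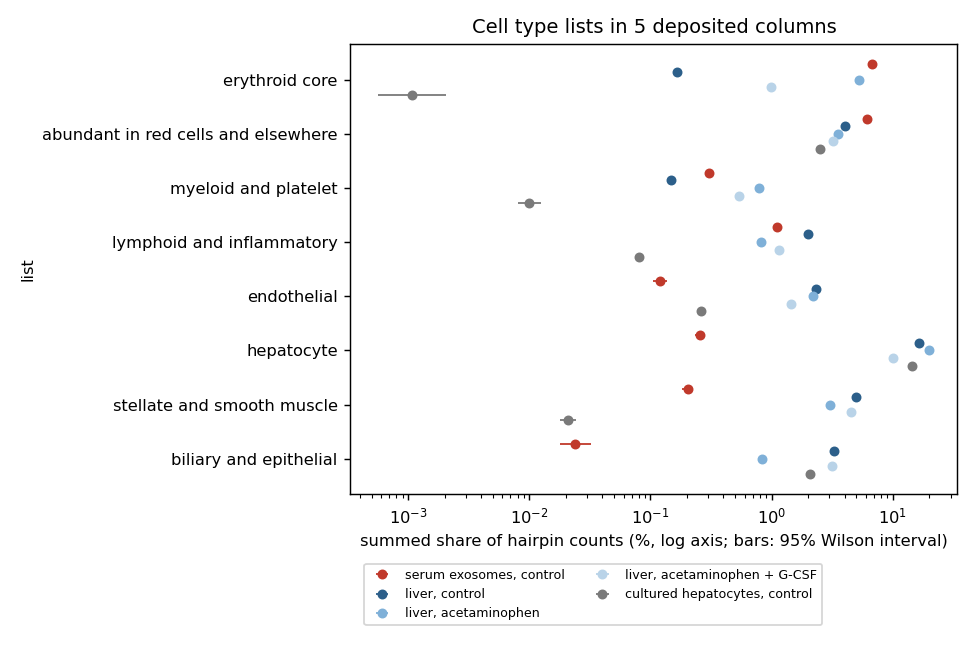
Summed share of hairpin counts (x axis, %, log axis) of 8 cell type lists (rows) in 5 columns (colours), with 95% Wilson intervals. The erythroid list stands at 6.68% in serum exosomes, 0.166% in control liver and 0.00107% in hepatocytes, and the hepatocyte list at 0.257%, 16.5% and 14.3%. The erythroid list leaves out mir-3107 and mir-451b.

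Among leukocyte hairpins, mir-155 and mir-142 were higher in serum exosomes and the other called ones lower. mir-155, which B and T cells and macrophages induce on activation, had 1817 counts (1.00%) in serum exosomes and 628 (0.0480%) in liver, a 20.9-fold higher share (19.1 to 22.9). Mature miR-155-5p had 53 and 10 counts. mir-142, made in cells of all blood lineages, had 411 and 516 counts, a 5.75-fold higher share (5.04 to 6.55). Acetaminophen liver had a slightly larger mir-142 share (0.246%) than serum exosomes (0.227%). mir-223, the main miRNA of neutrophils and platelets, had 140 and 1169 counts, a share of 0.0772% and 0.0894%, and was not called. Its log2 ratio of −0.21 turned to 2.17 under TMM scaling and 2.24 under DESeq2 scaling.

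The lymphoid and inflammatory list took 1.11% of serum exosomes and 2.01% of liver, and 1 of its 9 measured members was higher and 8 were lower, beside 13% and 73.5% of all hairpins. Only mir-155 met the count minimum in both columns, and the 8 lower members entered through liver alone. Of all 148 hairpins that entered so, 126 were lower, so the number of lower members supports nothing about the list. mir-155 made up most of its serum exosome counts. Within the list mir-146a and mir-146b had near-equal counts, as had mir-181b-1 and mir-181b-2, so it holds fewer measurements than hairpins. mir-342, an abundant lymphocyte miRNA from an intron of Evl, had 36 counts in serum exosomes and 17205 in liver, a share 66.2-fold higher in liver (47.8 to 94.6). mir-150, which marks mature lymphocytes, had 19.5 and 1287 counts, 8.92-fold (5.75 to 14.7), and mir-146a, an inhibitor of NF-kB signalling, 16 and 1479, 12.8-fold (7.86 to 22.5). The summed share of the list turned higher under TMM scaling (log2 1.53) and DESeq2 scaling (1.60), where 1 member was higher and 3 lower. The myeloid and platelet list took 0.305% and 0.148%, with 1 of its 3 measured members higher and 1, mir-511, lower, beside 13% and 73.5% of all hairpins. The lower member, mir-511, entered through liver alone. Under TMM or DESeq2 scaling 2 members, mir-142 and mir-223, were higher and none was lower. Its share in the treated livers, 0.793% and 0.538%, was above that in serum exosomes.

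Other hairpins that were higher belong to no blood cell list. mir-380 had 4898 counts (2.70%) in serum exosomes and 2643 (0.202%) in liver, a 13.4-fold higher share (12.7 to 14.02). Mature miR-380-5p had 90 and 45 counts. mir-380 is part of the large imprinted Dlk1-Dio3 cluster on chromosome 12, which is expressed mainly before birth. Of the 14 measured hairpins of that cluster, 2 (mir-380 and mir-134) were higher and 11 lower, shares near the 13% and 73.5% of all hairpins. Of the 14, only mir-380 met the count minimum in both columns. mir-380 carried nearly all of the cluster's 2.75% of serum exosome counts. Its neighbours mir-379, mir-299a and mir-494 had log2 ratios of −2.17, −1.92 and −3.43. Under TMM scaling those of mir-379 and mir-299a turned to 0.21 and 0.46, and 1 of the 14 was still called lower.

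mir-1948 had 2252 counts in serum exosomes and 341 in liver, a 47.6-fold higher share (42.5 to 53.5), but its mature arms had no counts in either column. mir-320, whose precursor bypasses cutting by Drosha, had 2096 and 2646 counts, 5.71-fold higher (5.39 to 6.05), and mature miR-320-3p had 44 and 37. mir-2137 had 287 and 261 counts, 7.93-fold higher (6.68 to 9.42), although its share in both treated livers was above that in serum exosomes. The 2 hairpins that met the count minimum in serum exosomes alone were mir-205, an epithelial miRNA, with 73 and 14 counts, and mir-5126 with 71 and 4.33.

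mir-423 had 1786 and 2477 counts, a 5.20-fold higher share (4.89 to 5.53), and differed also in its arms. In serum exosomes all 49 mature counts were of miR-423-5p and none of miR-423-3p, a 5p share of 100% (Wilson 92.7 to 100). In liver 29 counts were of the 5p and 25 of the 3p arm, 53.7% (40.6 to 66.3). The intervals do not overlap, and both rest on few counts. The arms, with their seeds in capitals, carry different target specificities.
miR-423-5p: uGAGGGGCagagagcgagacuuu
miR-423-3p: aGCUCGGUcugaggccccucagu

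The hairpins of the mir-17 to mir-92a-1 cluster, which promotes proliferation of blood and other cells, and of its paralogues also moved apart by seed. Hairpins with the miR-17 seed (mir-17, mir-20a, mir-20b, mir-93, mir-106a and mir-106b) together held 1.24% of serum exosomes and 0.762% of liver, a 1.62-fold higher share (1.55 to 1.70). The miR-19 hairpins (mir-19a, mir-19b-1 and mir-19b-2) held 0.131% and 0.871%, a share 6.66-fold higher in liver (5.86 to 7.61). On the X chromosome mir-106a, mir-18b and mir-20b were higher, with log2 ratios of 1.31, 1.45 and 1.27. mir-19b-2, 47 bases from mir-20b, was lower at −2.74. In the chromosome 14 cluster mir-18a was higher (54 and 117 counts, 3.33-fold), mir-17 and mir-20a were not called at 1.49- and 1.69-fold, and mir-19a and mir-19b-1 were lower.

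The 3 miR-19 hairpins had 78, 80 and 79 counts in serum exosomes and 3698, 3888 and 3801 in liver. These counts are nearly equal, and miR-19a-3p and miR-19b-3p are identical at 22 of 23 positions, so they are read as 1 measurement. In the mature table the miR-17 seed had 46 and 244 counts, a 1.43-fold higher share (1.02 to 1.96). Mature miR-19 had 6 and 318, a share 7.0-fold higher in liver (3.18 to 19.2). The cultured hepatocytes held far more miR-19 than liver, 9.30% of hairpin counts. Of the 14 measured hairpins of these clusters 6 were higher and 3 lower, beside 13% and 73.5% of all hairpins. Relative to the median hairpin the miR-19 hairpins were close to it, and under TMM or DESeq2 scaling they were not called and 11 others were higher.

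**Figure D3:**
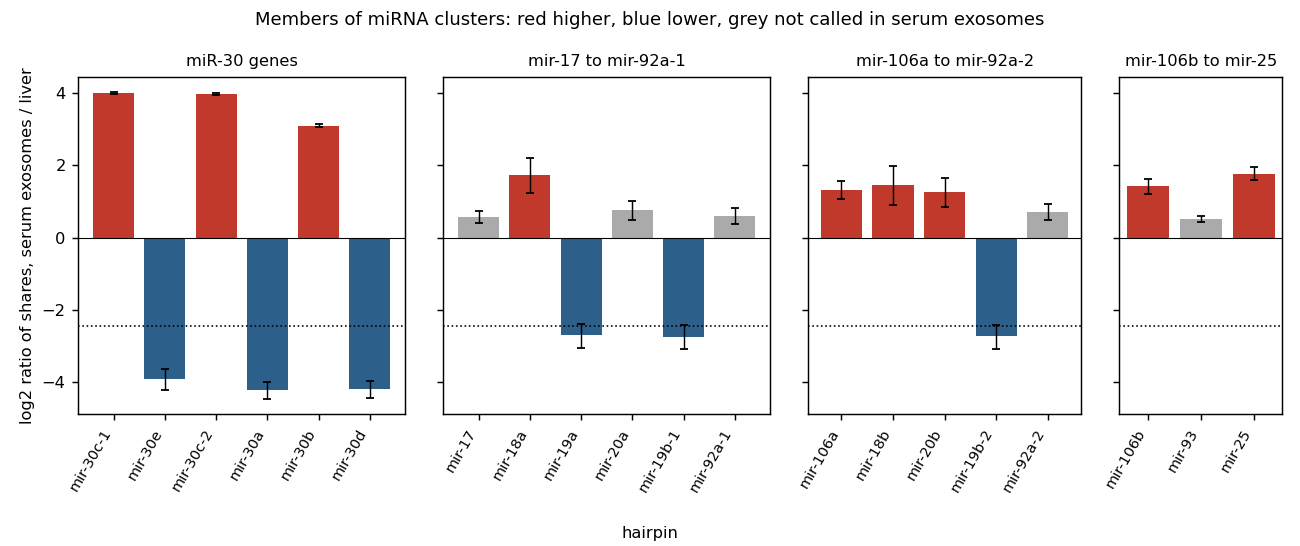
Log2 ratio of shares, serum exosomes over liver (y axis), of the hairpins of miR-30 genes and of 3 miRNA clusters (x axis); bars are coloured by call, error bars are exact 95% intervals and the dotted line is the median hairpin at −2.45. mir-30c-1 at 4.0 stands beside mir-30e at −3.93, and the 3 miR-19 hairpins lie below 0 while their cluster neighbours lie above it.

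Hairpins of hepatocytes were lower in serum exosomes. All 7 measured members of the hepatocyte list were lower, beside 73.5% of all hairpins, and together they fell from 16.5% (16.4 to 16.6) of liver counts to 0.257% (0.235 to 0.281) of serum exosome counts. Only mir-122 met the count minimum in both columns, and the other members entered through liver alone. Of all 148 hairpins that entered so, 126 were lower, so the number of lower members supports nothing about the list. The summed share was 64.3-fold higher in liver (58.8 to 70.6), against 5.47-fold for the median hairpin. mir-122, the main hepatocyte miRNA and a regulator of lipid metabolism, had 336 counts in serum exosomes (0.186%, rank 33) and 125059 in liver (9.56%, rank 1). Its share was 51.6-fold higher in liver (46.4 to 57.6). Mature miR-122-5p had 31 and 11657 counts, a 49.7-fold difference in share (34.97 to 73.1). mir-122 held 15.6% of acetaminophen liver, 5.69% with G-CSF added and 5.0% of hepatocytes.

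The hairpins of the mir-192/mir-194 clusters were lower still, with shares 117- to 179-fold higher in liver. mir-192 had 30 counts in serum exosomes and 25233 in liver, 117-fold (81.6 to 173), and mir-215 had 27 and 23112, 119-fold (81.5 to 180). Their mature miR-192-5p and miR-215-5p are identical at 18 of 21 positions and had 0.5 counts each in serum exosomes. mir-192 and mir-215 are therefore not read as independent measurements. mir-194-1 and mir-194-2 had 16 counts each against 19843 and 20663, 172-fold and 179-fold. These near-equal counts are read as 1 measurement, so the hepatocyte list holds fewer measurements than hairpins. mir-192 and mir-194-2 lie within 1 cluster on chromosome 19, and mir-194-1 and mir-215 within another on chromosome 1. Mature miR-194-5p had 1 count in serum exosomes and 1220 in liver. mir-802, another hepatocyte miRNA, had 0 and 570 counts, a share 26.3-fold higher in liver with the 0 set to a floor of 3 counts. mir-148a was the member closest to the others of the table, 4.82-fold higher in liver (3.52 to 6.78), and its log2 ratio was 0.12 under TMM scaling. The other 6 members stayed lower under TMM and DESeq2 scaling.

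mir-31 differed most among the named hairpins that were lower. It had 14 counts in serum exosomes and 42007 (3.21%, rank 3) in liver, a share 416-fold higher in liver (248 to 761). mir-31 is best known from epithelial cells. It made up almost all of the biliary and epithelial list, which took 0.0240% of serum exosomes and 3.26% of liver. All 6 of its measured members were lower, beside 73.5% of all hairpins, but under TMM scaling 1, mir-31, was lower and 1, mir-200c, was higher (log2 1.28). All 6 entered through liver alone, so the number of lower members supports nothing about the list. The list held 2.08% of hepatocytes and 0.828% of acetaminophen liver. Mature miR-31-5p had 1 and 832 counts.

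Hairpins of other liver cells were lower too. mir-126a, the endothelial miRNA encoded within Egfl7, had 217 counts in serum exosomes (0.120%) and 30125 in liver (2.30%), a share 19.2-fold higher in liver (16.8 to 22.1). Mature miR-126a-3p had 8 and 1366 counts. All 7 measured members of the list of stellate and smooth muscle cells were lower, beside 73.5% of all hairpins, with a summed share of 0.203% against 4.94%. Of these, mir-145a had 90.4 and 27287 counts, 42.0-fold higher in liver (34.2 to 52.3), mir-143 had 14 and 2331, 23.1-fold (13.7 to 42.3), and mir-214 had 115 and 5909, 7.12-fold (5.92 to 8.64). mir-145a and mir-145b had near-equal counts and are read as 1 measurement. The same holds for mir-199a-1, mir-199a-2 and mir-199b, so the list holds fewer measurements than hairpins. Of the 7, 3 met the count minimum in both columns and the others entered through liver alone. Under TMM scaling 3 of the 7 stayed lower. In hepatocytes this list held 0.0208%, below serum exosomes, so the levels ordered liver, serum exosomes, hepatocytes.

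**Figure D4:**
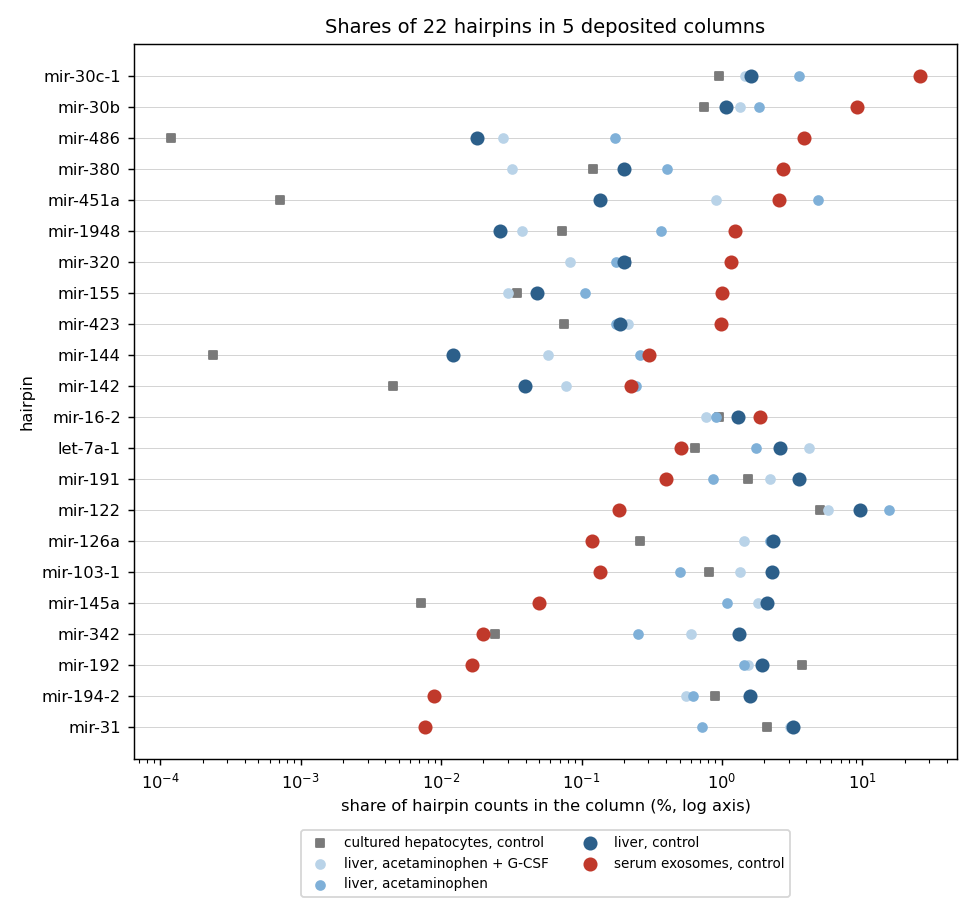
Share of hairpin counts (x axis, %, log axis) of 22 hairpins (rows) in 5 columns, with large points for control serum exosomes (red) and control liver (blue). mir-30c-1 and mir-486 are higher in serum exosomes than in the other columns, mir-451a is highest in acetaminophen liver at 4.82%, and mir-31 is lowest in serum exosomes at 0.00772%.

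Families expressed in most tissues were also lower by share. The let-7 family, which restrains growth and is abundant in differentiated cells, took 2.84% of serum exosomes and 12.1% of liver, and 12 of its 13 measured hairpins were lower and none higher, beside 73.5% and 13% of all hairpins. let-7a-1 had a share of 0.512% and 2.61%, 5.10-fold higher in liver (4.78 to 5.45). This is close to the median hairpin, and under TMM scaling its log2 ratio was 0.035 and the family's summed share turned slightly higher (log2 0.29). The paralogues mir-103-1, mir-103-2 and mir-107, which lie in introns of the pantothenate kinase genes Pank3, Pank2 and Pank1, took 0.409% together in serum exosomes and 6.82% in liver. Their share was 16.7-fold higher in liver (15.5 to 17.9), and all 3 stayed lower under TMM scaling. The 3 had near-equal counts and are read as 1 measurement. mir-191 held 0.397% and 3.52%, 8.87-fold higher in liver (8.24 to 9.56). Its log2 ratio was −0.76 under TMM scaling, where it was not called, and −0.70 under DESeq2 scaling.

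Of all hairpins 73.5% were lower, and several whole families were among them. The miR-378 family, encoded in the metabolic coactivator gene Ppargc1b and elsewhere, took 0.333% and 4.47%, and all 4 of its hairpins were lower under shares and under TMM scaling. The miR-29 family (4 of 4 lower), the clusters of miR-23, miR-24 and miR-27 (6 of 6) and the miR-99, miR-100 and miR-125 hairpins (6 of 6) were lower by share, and 2, 2 and 3 of them under TMM scaling. The miR-26 and miR-101 hairpins (6 of 6 lower) and mir-21a and mir-21b (2 of 2) were lower by share and none was called under TMM scaling, where the log2 ratio of mir-21a was 0.037. mir-21a held 0.0913% of serum exosomes, 0.466% of liver and 14.2% of the cultured hepatocytes. Reads were divided within these families, so they hold fewer measurements than hairpins. Mature miR-27a-3p and miR-27b-3p had 3.5 and 213.5 counts each, and miR-378a-3p and miR-378c had 5.67 and 552.5 each. The count minimum was met in both columns by 2 of the 4 miR-29 hairpins and 3 of the 6 miR-99, miR-100 and miR-125 hairpins.

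Several less abundant hairpins had large ratios on few serum exosome counts. mir-193a was 196-fold higher in liver (54.2 to 1619), and mir-365-1 and mir-365-2 were 105-fold and 106-fold higher. mir-193a and mir-365-2 lie on chromosome 11 within the same region. mir-455 was 63.7-fold higher (38.6 to 114). mir-203 had 0.5 counts in serum exosomes and 1337 in liver. mir-6481 had 3 and 3317.5 counts, and its mature miRNA had no counts in either column. These serum exosome shares all lay below 0.01%, and the intervals are wide.

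Direction was compared with the treated livers, which are separate libraries. Of the 33 hairpins that were higher in serum exosomes than in control liver, 26 were above all 3 liver columns, and the 7 others were mir-5126, mir-451a, mir-451b, mir-2137, mir-142, mir-20b and mir-335. Of the 186 that were lower, 179 were below all 3 liver columns. The serum exosome column is shared by these comparisons. Positions were available for the 210 of 253 hairpins that matched by name. Among these, hairpins lying within 10000 bases of each other on 1 strand formed 75 pairs. Of the pairs, 52 had the same call, 11 had 1 member called and 12 had opposite calls. Hairpins without a position, among them mir-18a, mir-30b and mir-30d, entered no pair. Of the 12 opposite pairs, 7 lay in the Dlk1-Dio3 region and involved mir-380 or mir-134, 3 involved mir-19b-2, and the others were mir-30c-1 with mir-30e and mir-421 with mir-374b.

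Of the mature miRNAs, 155 had 10 or more counts in either column, and 27 of them in both. Of the 155, 11 (7.1%) were higher in serum exosomes and 71 (45.8%) lower. Of the 27, 8 (29.6%) were higher and 13 (48.1%) lower. The 11 were miR-486a-5p, miR-486b-5p, miR-155-5p, miR-30c-5p, miR-380-5p, miR-451a, miR-423-5p, miR-320-3p, miR-30b-5p, miR-25-3p and miR-142a-3p, each an arm of a hairpin described above. miR-486a-5p had 229 and 7 counts, a 248-fold higher share (118 to 623), and miR-451a 162 and 87, 14.1-fold (10.8 to 18.5). miR-342-3p had 0 and 356, a share 15.7-fold higher in liver with the 0 set to the floor of 3 counts, and at least 12.7-fold by the interval. Both tables come from the same samples, so their agreement is not independent.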

How the data were processed

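Small RNA was enriched and sequenced from 24 samples in 12 conditions; the comparison used 4 of them, both controls on both instruments. The authors deposited expected counts (estimated counts, with reads that match several entries divided) per hairpin and mature miRNA, with 12 columns, 1 per condition, per the file headers. None of the sources used here gives the aligner, annotation, genome build or rule for dividing reads. Groups follow the labels. Counts were divided by column totals; ratios used counts rounded to whole numbers, exact conditional (Clopper-Pearson) 95% intervals and a floor of 3 counts for a count of 0. A call needed 50 counts in either column (10 for mature), a 2-fold difference and an interval excluding 1. With 1 column per condition there was no significance test; the calls were tested on simulated data. Named were mir-122, the 10 largest hairpins of each column, up to 12 called hairpins per direction holding at least 0.1% of the higher column, measured members of the cell type lists, and their mature arms. Members of the miR-30, mir-17 and Dlk1-Dio3 groups, mir-320, mir-423, mir-21a, mir-205, mir-5126, mir-335, mir-421 and mir-374b were named after their values were seen. The members and the 28 lists, 11 of them for cell types, were chosen with earlier results of these data known. Alternatives were other scalings (edgeR 4.0.16, DESeq2 1.42.0), minima, folds, liver columns and summed near-equal entries. RefSeq names matched 210 of 253 hairpins and 135 of 155 mature miRNAs. Python 3.11.15 and R 4.3.3 were used.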

Additional observations from a re-analysis of the deposited data

How the results depend on the processing

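Scaling decided the balance of calls. Against 33 hairpins higher and 186 lower by share, 68 and 58 were called with TMM scaling, 71 and 57 with DESeq2 size factors, and 54 higher with totals that leave out mir-122 and the miR-30 family, which raised log2 ratios by 1.08. The part of calls that were higher rose from 15.1% to 54.0%, 55.5% and 27.4%. TMM and DESeq2 scaling centre the log2 ratios of these hairpins, so a more even balance of calls is built into both. Higher calls numbered 52 with a minimum of 10 counts, 21 with 200, 77 with none and 21 at 4-fold. Lower calls numbered 60 with the minimum met in both columns and 122 with the minimum set as an equal share, an alternative chosen after seeing the data. Acetaminophen liver in place of control liver gave 20 and 107. Mature calls, 11 and 71, became 25 and 34 (TMM), 25 and 33 (DESeq2) and 21 and 42 (without those families), with 13 lower when the minimum was met in both columns.

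Log2 ratios named in the text that turned direction with TMM and DESeq2 scaling were those of let-7a-1 (0.035 and 0.10), let-7c-1 (0.25 and 0.32), mir-148a (0.12 and 0.18), mir-21a (0.037 and 0.10), mir-200c (1.28 and 1.35), mir-379 (0.21 and 0.28), mir-299a (0.46 and 0.53, with its serum exosome count of 0 at the floor), mir-374b (0.31 and 0.37), mir-223 (2.17 and 2.24, not called by share), the summed let-7 family (0.29 and 0.36) and the lymphoid and inflammatory list (1.53 and 1.60, and 0.22 without those families). Against acetaminophen liver mir-142 (−0.11), mir-20b (−0.033), mir-2137 (−2.03), mir-451a (−0.93), mir-451b (−0.92), mir-335 (−1.44) and the myeloid and platelet (−1.38), lymphoid (0.44) and pancreas lists (−3.10) turned. Against liver with G-CSF added mir-2137 (−0.40), mir-5126 (−0.33), the myeloid and platelet list (−0.82) and the neural list (−0.49) turned, as did the neural list in the mature table (−0.54). The erythroid list against acetaminophen liver fell to a log2 ratio of 0.35 from 5.34. The causes were not tested.

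No paired analysis was possible because each condition has 1 column. For the same reason no sample was left out in turn. In the alternative that puts the most counted mature arm in place of its hairpin, an arm at 0 in a column or with fewer than 10 counts in both gave no value. Depth limits small shares: a count of 0 in serum exosomes allows 3 counts of the total.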

Other observations

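Lists of tissues outside liver and blood held few counts in either control column. Striated muscle hairpins had 48.5 counts in serum exosomes (0.0268%) and 60.7 in liver (0.00464%), a share 5.77-fold higher in serum exosomes (3.90 to 8.58), and none of the 10 in the table reached 50 counts. Pancreas hairpins had 11 and 7.33 counts. Neural hairpins had 68.2 and 321, and their measured members, mir-128-1 and mir-128-2, were not called.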
